A study of Homo sapiens with 12 samples.

Results

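The ATP-binding cassette (ABC) drug efflux transporters were followed in lenvatinib-resistant and parental liver cancer cells. They were chosen by gene name, from a list of 10: ABCB1, ABCB4, ABCB11, ABCC1, ABCC2, ABCC3, ABCC4, ABCC6, ABCG2 and ABCA5. Of these, 8 were in either expression table. All 8 were among the 7533 genes of the Huh7 table, and all but ABCB4 (7) were among the 8717 named entries of the Hep3B table. ABCB11, the bile salt export pump, and ABCC4, an exporter of cyclic nucleotides and bile acids, matched no row and were not analysed here. RNA was sequenced from 12 libraries in 4 groups of 3. The groups were lenvatinib-resistant Huh7, parental Huh7, lenvatinib-resistant Hep3B and parental Hep3B. Both lines are established human hepatocellular carcinoma lines and were grown in DMEM with fetal bovine serum. Lenvatinib is a multikinase inhibitor used against advanced liver cancer. The labels name DMSO or lenvatinib as treatment for all libraries without saying which received which, so drug exposure at harvest is not known. The sources used here do not give how resistance was raised, at which dose, or whether each resistant line is a clone or a pool.

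ABC transporters use ATP to move substrates across membranes. In hepatocytes, one set sits on the canalicular membrane and exports drugs, conjugates and lipids into bile, while another sits on the basolateral membrane and returns conjugates to blood. Overproduction of some of them is a well-known route by which cultured tumour cells lower their content of a drug, and lenvatinib is known as a substrate of the products of ABCB1 and ABCG2. RNA levels do not measure transport.

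The tables listed 11480608 to 11800771 reads per library in resistant Huh7 and 12029528 to 14174202 in parental Huh7. Hep3B libraries held 6184929 to 6884468 in resistant and 6363935 to 7475184 in parental cells. These totals cover listed genes only. Values below are scaled reads, that is, reads multiplied or divided by the 1 scaling factor the authors used per library, and they compare libraries within a line only. Hepatocyte markers were listed in both lines: 10 of 12 in Huh7, summing to 615997 to 641278 scaled reads in resistant and 524422 to 566639 in parental libraries, and 8 of 12 in Hep3B, summing to 191412 to 195110 in resistant and 387194 to 393748 in parental libraries. In Hep3B all 8 fell, and in Huh7 6 rose and 4 fell, by the limma test given below. That test called 27.6% of all Hep3B entries higher and 21.9% lower, and 48% of Huh7 genes higher and 52% lower. It thus called 100% of the Huh7 table, so each marker listed there had to rise or fall. The marker counts that follow stand beside the same shares. Markers of other cell types also moved. The 4 listed fibroblast markers of 8 summed to 2224 to 2501 scaled reads in resistant and 616 to 693 in parental Hep3B (2 rose, 2 fell), and the 3 listed of 8 to 884 to 888 in resistant and 4161 to 4350 in parental Huh7 (3 fell). Of 8 cholangiocyte markers, 6 were listed in Hep3B, with 19302 to 19563 scaled reads in resistant and 23487 to 24151 in parental libraries (1 rose, 2 fell). The 4 listed in Huh7 summed to 9351 to 9575 in resistant and 10260 to 11352 in parental libraries (2 rose, 2 fell). Endothelial markers listed were 2 of 8 in Hep3B (81.4 to 82.6 in resistant, 28.5 to 46.6 in parental libraries, 1 rose) and 3 of 8 in Huh7 (236 to 255 in resistant, 133 to 171 in parental libraries, 1 rose, 2 fell). Leukocyte markers listed were 2 of 8 in each line, with 108 to 121 in resistant and 438 to 520 in parental Hep3B and with 5280 to 5460 in resistant and 6456 to 6674 in parental Huh7 (1 rose and 1 fell in each). The marker that rose in Hep3B passed the filter on low values, at least 1 scaled read in 3 libraries, only through the resistant libraries. Its rise is therefore a description. None of the listed markers was at 0 in all libraries of its line. The part of these markers in the transporter results was not tested, and in bulk RNA fewer cells of a type and less RNA per cell cannot be told apart.

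Of the 8 transporters in Huh7, 5 rose in resistant cells (ABCC2, ABCC3, ABCG2, ABCC6 and ABCB1) and 3 fell (ABCC1, ABCA5 and ABCB4), by limma with a Benjamini-Hochberg adjusted p under 0.05 over the whole table. That test called 100% of the table, 48% higher and 52% lower, and every gene listed has a deposited adjusted p under 0.05, so the number called says nothing about the transporters. In Hep3B, 2 of 7 rose (ABCC3 and ABCA5), 2 fell (ABCC2 and ABCG2) and 3 did not pass (ABCB1, ABCC1 and ABCC6). There the test called 49.5% of all 8717 entries, 27.6% higher and 21.9% lower, so the transporters were called about as often as any entry. One of the 4 calls, ABCG2, rests on an entry that passed the filter on low values only through the parental libraries, where it is high, and without it 3 of 6 were called. The resistant and parental libraries did not overlap for 8 of 8 transporters in Huh7 (98.6% of the table) and for 4 of 7 in Hep3B (56.3% of the table). The median log2 fold change of the transporters, resistant over parental, was 0.24 in Huh7, against -0.19 over all genes tested. In Hep3B it was 0.07, the same as over all entries tested. With each Hep3B library centred on its median value it was -0.09.

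**Figure D1:**
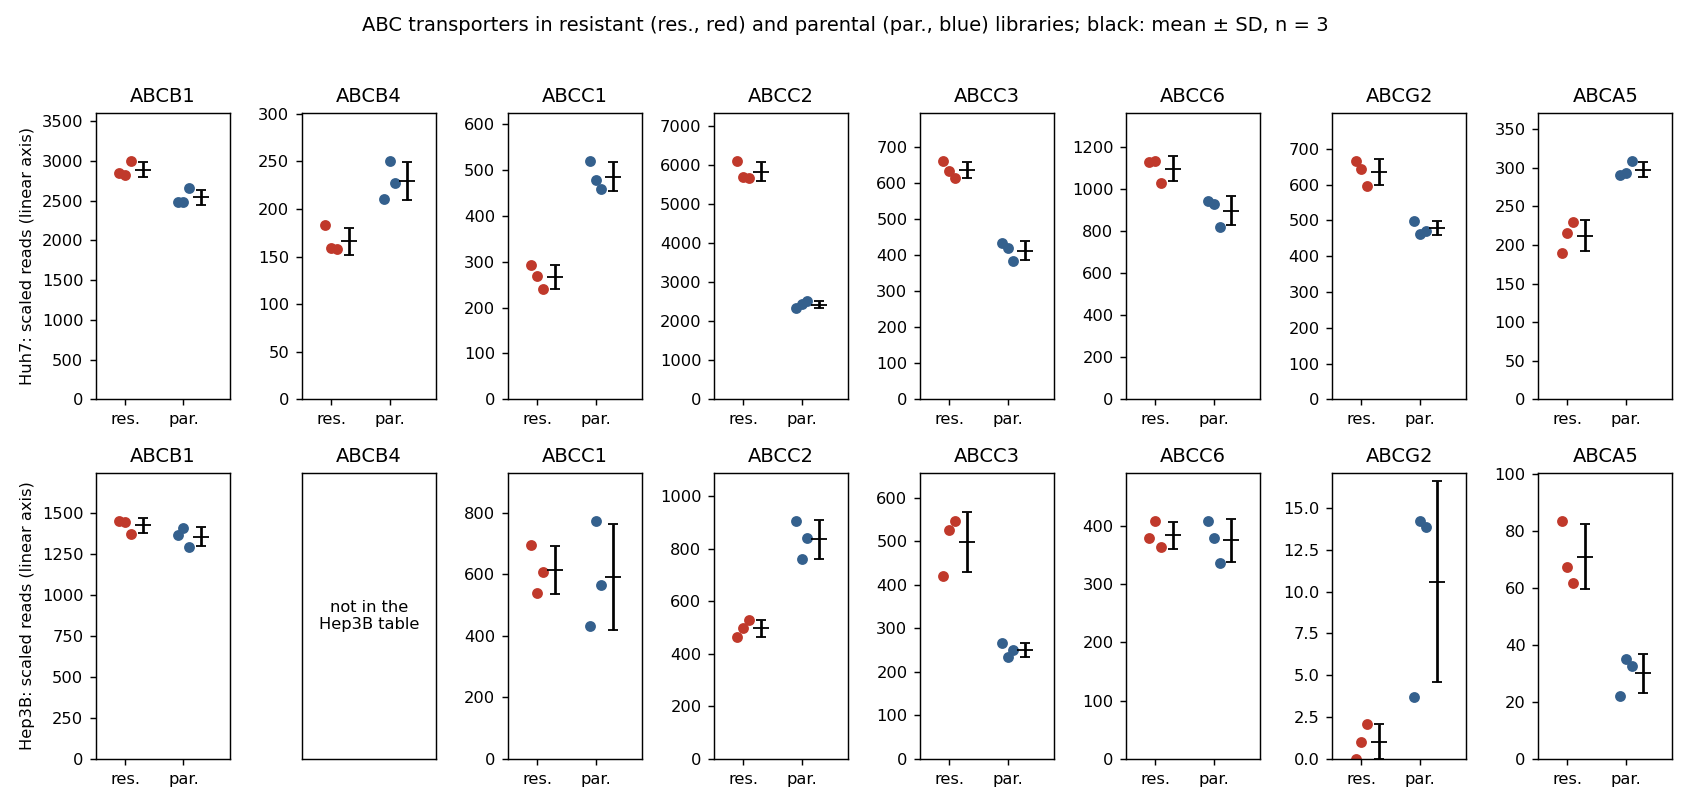
Scaled reads of each transporter in every library, with Huh7 in the upper row and Hep3B in the lower row; each panel has its own linear axis from 0, red points are resistant and blue points parental libraries, and black marks are the mean with its SD (n = 3). Resistant ABCC2 libraries lie above the parental ones in Huh7 (5685 to 6110 in resistant, 2330 to 2529 in parental libraries) and below them in Hep3B (462 to 529 in resistant, 760 to 907 in parental libraries).

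ABCC2 encodes the canalicular exporter of glucuronide and glutathione conjugates, bilirubin glucuronides among them. In resistant Huh7 it had 6110, 5706 and 5685 scaled reads, against 2330, 2431 and 2529 in parental Huh7. All 3 resistant libraries lay far above all 3 parental ones. The mean was 5834 ± 239 scaled reads in resistant and 2430 ± 99.3 in parental cells (SD, n = 3 each), 2.40-fold higher in resistant cells, a log2 fold change of 1.26 ± 0.05 (SE; limma adjusted p = 9.24e-14). In Hep3B the order of the groups was the opposite. Resistant Hep3B had 462, 498 and 529 scaled reads, and parental Hep3B had 907, 760 and 839. The log2 fold change was -0.75 ± 0.08, 1.68-fold lower in resistant Hep3B (limma adjusted p = 1.56e-07).

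ABCG2 encodes the breast cancer resistance protein, a canalicular exporter that works as a dimer and carries drugs, sulfated conjugates and urate. In Huh7 the resistant libraries had 666, 645 and 596 scaled reads, against 500, 462 and 471 in parental libraries. The resistant libraries were all higher, by 1.33-fold (log2 0.41 ± 0.08, limma adjusted p = 8.52e-05). In Hep3B the gene was close to the detection limit. Resistant Hep3B libraries held 0, 1 and 2 reads, and parental libraries held 4, 13 and 14 reads. The scaled totals differed 10.3-fold, lower in resistant cells, with a 95% counting interval of 3.22 to 52.7 on 3 resistant and 31 parental reads, which covers counting error only. Its fitted log2 fold change of -2.47 ± 0.70 passed the limma test (adjusted p = 0.00593), and the authors' deposited table gives -3.42 with an adjusted p of 0.0081. The entry passed the filter on low values only through the parental libraries, since the resistant ones alone would not have met it, and the Hep3B change of ABCG2 is therefore given as a description that supports no count. It was left out by the filter of edgeR, and with a pseudocount of 5 in place of 1 the fitted log2 change was -1.30. The Hep3B table counts 1 RefSeq transcript per gene, and the reference lists 13 curated transcripts for ABCG2, so reads from other transcripts of the gene may be missing there.

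ABCB1 encodes P-glycoprotein, the best known multidrug exporter. In Huh7 it was a little higher in resistant cells, with 2847, 2829 and 3001 scaled reads, against 2485, 2489 and 2656 in parental cells. The lowest resistant library was above the highest parental one, and the fitted change was 1.14-fold (log2 0.19 ± 0.05, limma adjusted p = 0.00286). In Hep3B the libraries overlapped, at 1453, 1443 and 1373 scaled reads in resistant and 1366, 1406 and 1290 in parental cells. The log2 fold change there was 0.07 with a 95% confidence interval of -0.05 to 0.20 (limma adjusted p = 0.333). With median centring, and not called either, it was -0.09. The upper end of the Hep3B interval lay just above the Huh7 change of 0.19.

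ABCB4, next to ABCB1 on chromosome 7, encodes the canalicular floppase that moves phosphatidylcholine into bile. It was listed in Huh7 only. Resistant Huh7 had 183, 159 and 158 scaled reads, and parental Huh7 had 211, 250 and 227. All resistant libraries were lower, 1.38-fold in the fit (log2 -0.46 ± 0.12, limma adjusted p = 0.00125). The neighbouring pair thus moved in opposite directions in Huh7. ABCB1 and ABCB4 are similar in sequence, and the sources used here do not give how the authors' counting divided reads that match both.

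ABCC3 encodes a basolateral exporter of glucuronides and bile acids and was the only one of the 7 transporters in both tables called higher in both lines. In Huh7 it had 661, 632 and 615 scaled reads in resistant libraries, against 433, 420 and 384 in parental ones. In Hep3B it had 420, 526 and 548 in resistant libraries, against 266, 235 and 250 in parental ones. Neither line had overlapping groups. The rise was 1.54-fold in Huh7 (log2 0.63 ± 0.08, limma adjusted p = 9.32e-07) and 1.98-fold in Hep3B (log2 0.98 ± 0.11, limma adjusted p = 1.23e-07).

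ABCC1 encodes a basolateral exporter of glutathione conjugates that is low in normal hepatocytes. In Huh7 it had 293, 269 and 241 scaled reads in resistant libraries, against 520, 478 and 458 in parental ones. Every resistant library was lower, 1.82-fold in the fit (log2 -0.86 ± 0.10, limma adjusted p = 1.53e-07). Resistant Hep3B had 696, 541 and 607 scaled reads, and parental Hep3B had 434, 775 and 567. The parental libraries of Hep3B held both the lowest and the highest value, and the log2 fold change of 0.09 had a 95% confidence interval of -0.53 to 0.71 (limma adjusted p = 0.802). It was 0.30 (adjusted p = 0.0637) without parental replicate 2, -0.12 without parental replicate 1 and -0.01 without resistant replicate 1, with no call in any of these. The reference lists 12 curated transcripts of ABCC1, and the Hep3B entry covers 1.

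ABCC6 encodes a basolateral transporter needed for ATP release from hepatocytes, whose loss causes pseudoxanthoma elasticum. It rose 1.22-fold in Huh7, with 1126, 1132 and 1027 scaled reads in resistant libraries, against 941, 928 and 816 in parental ones (log2 0.29 ± 0.07, limma adjusted p = 0.000872). In Hep3B it had 378, 408 and 363 scaled reads in resistant libraries, and 409, 378 and 337 in parental ones. These values overlapped, with a log2 fold change of 0.04 and a 95% confidence interval of -0.16 to 0.23 (limma adjusted p = 0.787), and it was -0.12 with median centring, not called. Its pseudogene ABCC6P1, listed in Hep3B, had 720 ± 34.8 scaled reads in resistant and 653 ± 15.7 in parental libraries (SD, n = 3 each; limma adjusted p = 0.113). Reads shared between the gene and its near-identical pseudogene make both values uncertain.

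ABCA5 encodes a transporter of the lipid-moving A subfamily found in lysosomes and late endosomes. It fell in Huh7, with 190, 215 and 230 scaled reads in resistant libraries, against 291, 293 and 309 in parental ones. The groups did not overlap (1.41-fold lower, log2 -0.49 ± 0.11, limma adjusted p = 0.000269). In Hep3B it rose 2.34-fold, with 83.6, 67.2 and 61.7 scaled reads in resistant libraries, against 22.1, 35.1 and 32.7 in parental ones. All resistant libraries were above all parental ones there (log2 1.23 ± 0.24, limma adjusted p = 0.000189).

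**Figure D2:**
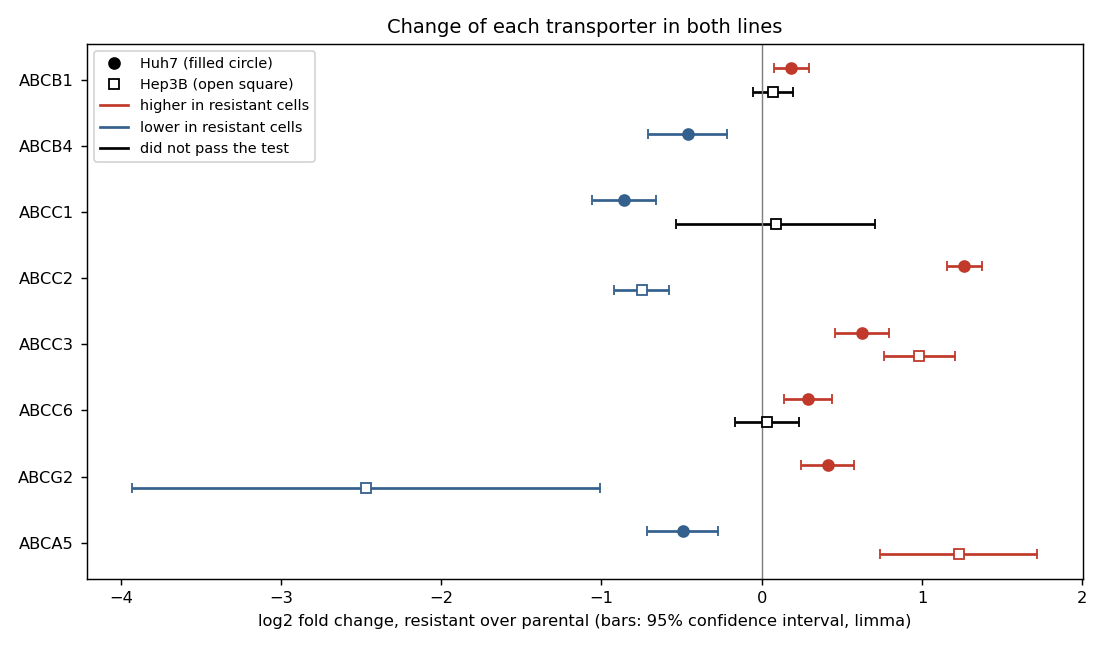
Log2 fold change of each transporter, resistant over parental, with its 95% confidence interval from limma; filled circles are Huh7 and open squares Hep3B, and red, blue and black mark higher, lower and not passing the test. ABCC2, ABCG2 and ABCA5 lie on opposite sides of 0 in the 2 lines, while ABCC3 lies to the right in both.

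ABCC2 and ABCA5 passed the test in both lines with opposite signs. Leaving ABCG2 aside, these were 2 of the 3 transporters called in both lines, against 53.1% of the 2132 genes called in both. ABCG2 also had opposite signs, on 3 resistant and 31 parental reads in Hep3B, and is not counted. Of all 3885 genes in both tables, 29.1% were called with opposite signs. The changes themselves were then set against each other as a difference of log2 fold changes, Huh7 minus Hep3B. This difference was 2.01 ± 0.10 for ABCC2 (SE; adjusted p = 1.02e-20) and -1.72 ± 0.26 for ABCA5 (adjusted p = 2.45e-07), from the standard errors of both limma fits and adjusted over all genes in both tables. ABCC1 also differed, at -0.95 ± 0.26 (adjusted p = 0.00233). For ABCG2 the difference was 2.88 ± 0.70, and 1.70 with a pseudocount of 5, given as a description because of its low Hep3B reads. ABCC3 rose less in Huh7 than in Hep3B, by -0.36 ± 0.13 (adjusted p = 0.0166), a call that was lost with median centring (-0.14, adjusted p = 0.362), without Hep3B resistant replicate 2 (-0.31, adjusted p = 0.0519) and without Hep3B resistant replicate 3 (-0.28, adjusted p = 0.081). ABCC6 (0.26, 95% confidence interval 0.02 to 0.50, adjusted p = 0.0554) and ABCB1 (0.11, interval -0.05 to 0.27, adjusted p = 0.208) did not pass. Both passed with median centring, at 0.48 and 0.33, a scaling under which the median of all Hep3B changes was -0.09, against 0.07. ABCC6 also passed on leaving out Hep3B resistant replicate 2 (0.30), Hep3B parental replicate 3 (0.33), Huh7 resistant replicate 3 (0.30), Huh7 parental replicate 1 (0.29) or Huh7 parental replicate 2 (0.28). The test called 67.6% of the 3885 genes, 30.7% higher in Huh7 and 37% lower, and, leaving ABCG2 aside, 4 of 6 transporters, 1 higher and 3 lower. Every one of these genes has a deposited adjusted p under 0.05 in Huh7. The test thus ran only on genes already selected for a Huh7 change, which favours calls.

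The promoters of the 3 transporters on opposite sides of 0 in the lines are printed to show how unlike their start regions are. Each is the 250 bases before the annotated start, from RefSeq on GRCh38.p14, read 5′ to 3′ on the strand of the gene. Capitals mark matches, on either strand, to GCGTG, the core bound by the aryl hydrocarbon receptor with ARNT, and to GGGCGG, the GC box.
ABCC2, chr10:99782390-99782639, plus strand: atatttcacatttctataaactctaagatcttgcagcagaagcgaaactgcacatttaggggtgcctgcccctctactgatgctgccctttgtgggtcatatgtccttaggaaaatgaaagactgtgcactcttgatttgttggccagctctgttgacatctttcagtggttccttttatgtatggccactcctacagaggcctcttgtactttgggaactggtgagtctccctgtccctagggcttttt
ABCG2, chr4:88158910-88159159, minus strand: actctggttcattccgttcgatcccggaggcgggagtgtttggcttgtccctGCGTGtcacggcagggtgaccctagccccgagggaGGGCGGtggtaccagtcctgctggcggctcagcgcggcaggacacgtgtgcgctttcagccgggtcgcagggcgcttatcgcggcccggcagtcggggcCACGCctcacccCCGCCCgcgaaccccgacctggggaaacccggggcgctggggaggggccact
ABCA5, chr17:69327134-69327383, minus strand: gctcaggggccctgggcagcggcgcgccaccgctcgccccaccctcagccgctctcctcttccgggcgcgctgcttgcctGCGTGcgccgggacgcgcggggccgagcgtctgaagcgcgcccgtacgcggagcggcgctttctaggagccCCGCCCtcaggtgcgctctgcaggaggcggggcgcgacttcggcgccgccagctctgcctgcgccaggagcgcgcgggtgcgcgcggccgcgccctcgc
The ABCC2 window has 45.6% G and C and 1 CpG. The ABCG2 window has 71.2% and 27, and the ABCA5 window has 79.2% and 42, against medians of 58% and 11 over all 35116 windows of the table. ABCG2, for which the table holds 5 windows and this one starts nearest to the transcript counted in Hep3B, has GCGTG at -198 and -64 and GGGCGG at -163 and -52, counted as the first base of the match before the start. ABCA5 has GCGTG at -170 and GGGCGG at -99, and its annotated start lies 11708 bases from that of the transcript counted in Hep3B. GCGTG occurs in 32.2% and GGGCGG in 42.6% of all windows. Also searched on both strands were TGACNNNGC, the core of the antioxidant response element bound by NRF2 (10.9% of windows), AGGTCA, the nuclear receptor half-site (12.1%), and CCAAT (32.0%), and none of the 3 windows held these letters. A match is a description of the letters, and a window with none says nothing of the factor. RefSeq windows were matched for 7 of the 10 listed transporters, and ABCB4, ABCC1 and ABCC3 are named only.

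The transporters were also set on a per-kilobase scale, using the length of the RefSeq transcript, and ranked within each line. Huh7 values are reads of a whole gene and Hep3B values reads of 1 RefSeq transcript. Ranks are therefore not compared between the lines. In resistant Huh7 the order of levels was ABCC2 at 1005 ± 41.2 scaled reads per kilobase (SD, n = 3), ABCB1 at 623 ± 20.3, ABCC6 at 191 ± 10.3, ABCG2 at 142 ± 7.99, ABCC3 at 111 ± 4.08, ABCC1 at 40.8 ± 3.94, ABCB4 at 38.9 ± 3.33 and ABCA5 at 32.4 ± 3.09. Only ABCC1 and ABCB4 overlapped among neighbours in that order. In parental Huh7 it was ABCB1 at 547 ± 21.0, ABCC2 at 419 ± 17.1, ABCC6 at 156 ± 12.0, ABCG2 at 107 ± 4.36, ABCC1 at 74.1 ± 4.83, ABCC3 at 72.1 ± 4.47, ABCB4 at 53.7 ± 4.69 and ABCA5 at 45.6 ± 1.49, and the overlap was between ABCC1 and ABCC3. ABCC2 was thus first in resistant and second in parental Huh7. Its level over that of ABCB1 was 1.52 to 1.72 in resistant libraries and 0.750 to 0.781 in parental ones.

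The levels of the 8 transporters per kilobase summed to 2183 ± 50.9 in resistant Huh7 and 1474 ± 16.1 in parental Huh7, and ABCC2 made up 46.0% ± 0.807 of that sum in resistant and 28.4% ± 0.864 in parental libraries (SD, n = 3 each). In Hep3B the sum over 7 transporters was 650 ± 2.09 in resistant and 642 ± 24.3 in parental libraries, a gap smaller than the parental SD. ABCB1 led in both Hep3B groups, at 306 ± 9.32 in resistant and 291 ± 12.7 in parental libraries. In resistant Hep3B, ABCC1 at 93.8 ± 11.9, ABCC3 at 87.1 ± 12.0 and ABCC2 at 85.5 ± 5.79 followed and overlapped each other, then ABCC6 at 66.7 ± 4.01, ABCA5 at 10.9 ± 1.74 and ABCG2 at 0.231 ± 0.234. In parental Hep3B, ABCC2 was second at 144 ± 12.7, before ABCC1 at 90.3 ± 26.3, ABCC6 at 65.2 ± 6.29, which overlapped ABCC1, ABCC3 at 43.8 ± 2.75, ABCA5 at 4.59 ± 1.06 and ABCG2 at 2.37 ± 1.34. The level of the basolateral exporter ABCC3 over that of the canalicular exporter ABCC2 was 0.923 to 1.07 in resistant and 0.298 to 0.314 in parental Hep3B. In Huh7 that ratio was 0.110 to 0.113 in resistant and 0.154 to 0.189 in parental libraries, and ABCC1 over ABCC3 was 0.342 to 0.386 in resistant and 0.993 to 1.05 in parental libraries.

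**Figure D3:**
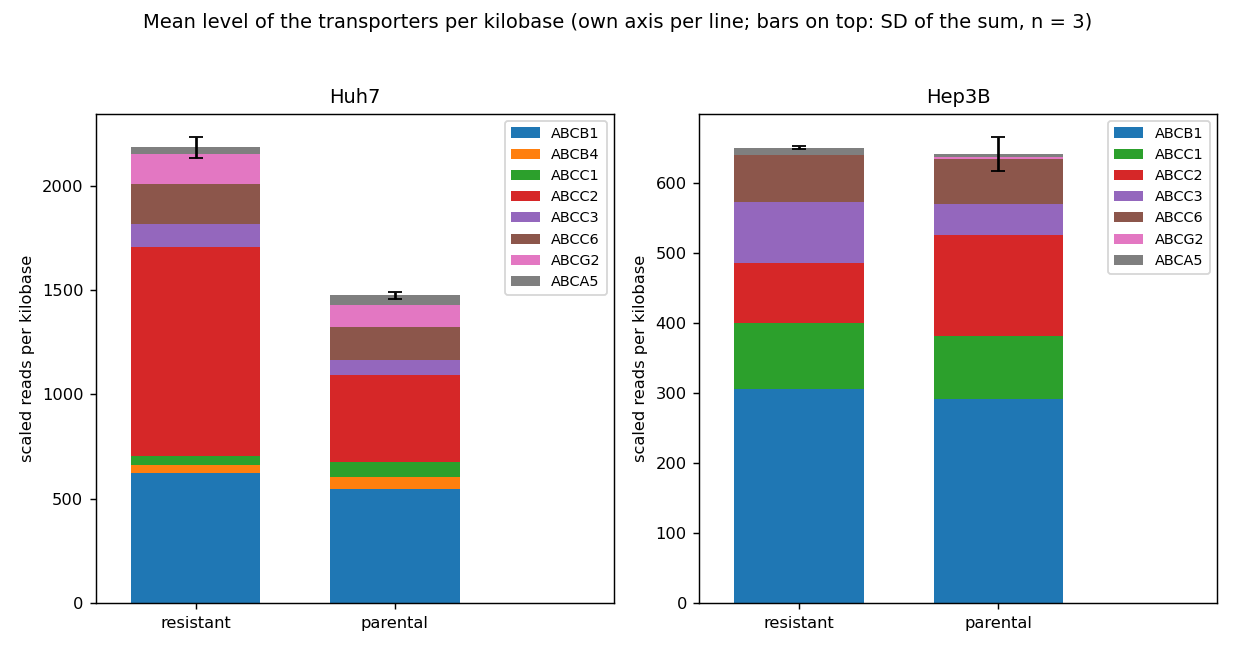
Mean scaled reads per kilobase of the transporters, stacked, in resistant and parental libraries of Huh7 (left panel) and Hep3B (right panel, own axis); the bar on top is the SD of the sum (n = 3). In Huh7 the sum is 2183 in resistant and 1474 in parental cells, with ABCC2 the largest layer in resistant cells; in Hep3B the sum is 650 in resistant and 642 in parental cells.

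The rest of the ABC family was read beside these transporters. Of 38 other ABC genes, 14 were in the Huh7 table, 7 higher and 7 lower, and 16 in the Hep3B table, 5 higher, 4 lower and 7 not called. These counts were near the shares over the whole tables, 48% higher and 52% lower in Huh7 and 27.6% higher and 21.9% lower in Hep3B. Their median log2 fold change was 0.01 in Huh7, against -0.19 over all genes tested, and 0.07 in Hep3B, against 0.07 over all entries tested. In Huh7 the largest changes were in ABCG8 and ABCG5, the partners that export sterols into bile. ABCG8 had 496 ± 21.8 scaled reads in resistant and 78.4 ± 11.2 in parental cells (log2 2.65 ± 0.12), ABCG5 had 122 ± 15.7 in resistant and 27.4 ± 10.5 in parental cells (log2 2.18 ± 0.25), and ABCC9, a regulatory subunit of potassium channels, had 11.4 ± 2.84 in resistant and 50.0 ± 12.3 in parental cells (log2 -2.03 ± 0.29). In Hep3B they were in ABCA9 and ABCA10, which lie beside ABCA5 on chromosome 17. ABCA9 held 47 reads in resistant and 3 in parental Hep3B, a ratio of 15.7 with a 95% counting interval of 5.05 to 78.8. The ABCA9 entry passed the filter on low values only through the resistant libraries, where it is high. Its ratio is therefore a description, though it is counted among the 5 higher. ABCA10 had 40.7 ± 8.23 scaled reads in resistant and 5.92 ± 3.66 in parental Hep3B (log2 2.75 ± 0.42), and ABCA5 also rose there. In Huh7, ABCA10 had 14.5 ± 2.01 in resistant and 3.64 ± 3.00 in parental libraries (log2 1.95 ± 0.47), where ABCA5 fell. There ABCA10 too passed the filter only through the resistant libraries, so this value is a description, though it is counted among the 7 higher.

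**Figure D4:**
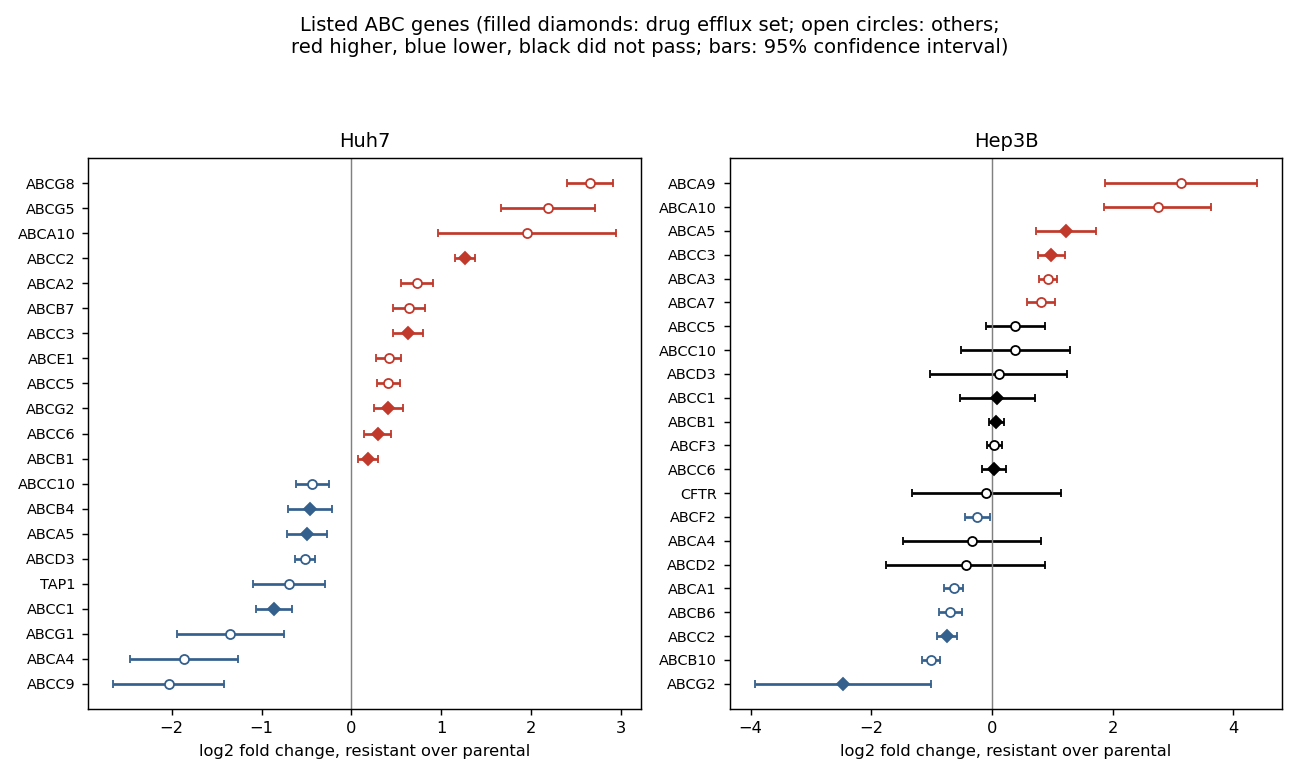
Log2 fold change, resistant over parental, of the listed ABC genes reported here in Huh7 (left panel) and Hep3B (right panel), ordered by size, with 95% confidence intervals from limma; filled diamonds are the drug efflux transporters, open circles other ABC genes, and red, blue and black mark higher, lower and not passing. ABCG8 (2.65) and ABCG5 (2.18) lie above ABCC2 in Huh7, and ABCG2 (-2.47) is the lowest in Hep3B.

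The lists that follow stand beside the shares called over each whole table, 48% higher and 52% lower in Huh7 and 27.6% higher and 21.9% lower in Hep3B, and beside median log2 fold changes of -0.19 over all Huh7 genes and 0.07 over all Hep3B entries. No test of a list as a whole was run, and no list was tested between the lines.

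Nuclear receptors and other sensors that control these transporters in liver were listed more often in Huh7. Of 26 such regulators, 19 were in the Huh7 table, 9 higher and 10 lower (median log2 -0.19), and 9 in the Hep3B table, 1 higher and 8 not called (median 0.22). In Huh7, NR1I2, the pregnane X receptor that drives ABCB1 and ABCC2, had 522 ± 9.77 scaled reads in resistant and 302 ± 32.6 in parental cells (log2 0.79 ± 0.09). NFE2L2, which encodes NRF2 and drives ABCC2 and ABCC3, had 8378 ± 325 in resistant and 5412 ± 549 in parental cells (log2 0.63 ± 0.06), and NR1H4, the bile acid receptor FXR, had 1755 ± 32.3 in resistant and 2043 ± 125 in parental cells (log2 -0.22 ± 0.06). The largest changes were PPARGC1A, a coactivator (log2 1.72 ± 0.16), PPARA, the fatty acid receptor (1.20 ± 0.10), and AHR, the aryl hydrocarbon receptor (-1.18 ± 0.07). NR1I3 and HNF4A were not analysed here. The 1 call in Hep3B was NR0B2, the repressor SHP, with 1030 ± 76.7 scaled reads in resistant and 550 ± 25.8 in parental cells (log2 0.90 ± 0.07). With median centring AHR, named after its value was seen, was also called there, lower.

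Of 19 genes of apical scaffolds and canalicular trafficking, 11 were listed in Huh7, 3 higher and 8 lower, where 52% of the table was lower. Their median log2 fold change of -0.24 was close to the -0.19 over all genes. MYO5B, the recycling endosome motor, rose by 1.57 ± 0.08 on the log2 scale, ATP8B1, the canalicular flippase, by 1.06 ± 0.10, and RDX, radixin, which anchors ABCC2 to actin, fell by 0.76. In Hep3B, 10 were listed, 2 higher, 1 lower and 7 not called (median 0.00). MSN, moesin, rose by 0.94 ± 0.07, MAL2 fell by 0.59, and ATP8B1 rose by 0.22 ± 0.08 (limma adjusted p = 0.0182). That last call was lost under 6 alternatives, without resistant replicate 2 (adjusted p = 0.0877) or parental replicate 3 (0.073) among them, and with median centring it was 0.06.

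Of 19 uptake and export solute carriers, 10 were listed in Huh7, 9 higher and 1 lower, where 48% of the table was higher (median log2 0.62, against -0.19). SLC22A7, an organic anion carrier, rose by 1.20 ± 0.28, SLCO4C1 by 1.05 ± 0.07 and SLC51A, a subunit of the basolateral bile acid exporter, by 0.86 ± 0.11. In Hep3B, 9 were listed, 4 higher and 5 lower, where 49.5% of the table was called (median -0.61, against 0.07). SLCO1B1, the hepatic uptake carrier, had 35.0 ± 2.28 scaled reads in resistant and 11.0 ± 5.09 in parental cells (log2 1.67 ± 0.34). Its close relative SLCO1B3 had 2.72 ± 1.61 in resistant and 13.2 ± 6.15 in parental cells (-1.95 ± 0.56), a call lost without parental replicate 3 (-1.62, adjusted p = 0.0568). The SLCO1B3 entry passed the filter on low values only through the parental libraries, where it is high. Its change is therefore a description, though it is counted among the 5 lower. SLC51B had 5.06 ± 2.16 in resistant and 17.4 ± 7.48 in parental cells (-1.59 ± 0.47), lost without parental replicate 1 (-1.30, adjusted p = 0.0634).

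The enzymes that make the conjugates carried by ABCC2, ABCC3 and ABCG2 were counted with those of glutathione supply, 31 genes in all. In Huh7, 17 were listed, 15 higher and 2 lower, against 48% and 52% of the table (median log2 0.73, against -0.19). In Hep3B, 14 were listed, 9 higher, 2 lower and 3 not called, against 27.6% higher and 21.9% lower over the table (median 0.67, against 0.07). In Huh7, SULT1E1, the oestrogen sulfotransferase, had 623 ± 49.1 scaled reads in resistant and 33.0 ± 8.74 in parental cells (log2 4.23 ± 0.16), and GSTA1 rose by 2.62 ± 0.07. UGT1A1, which makes the bilirubin glucuronides carried by ABCC2, held 44 reads in resistant and 10 in parental Huh7 (log2 2.28 ± 0.59). It passed the filter on low values only through the resistant libraries, where it is high. Its change is therefore a description, though it is counted among the 15 higher. In Hep3B, UGT1A1 held 32 reads in resistant and 2 in parental cells, a ratio of 16.0 (95% counting interval 4.09 to 138), UGT1A9 held 38 reads in resistant and 3 in parental cells, a ratio of 12.7 (4.02 to 64.2), and UGT2B15 rose by 2.74 ± 0.44. The Hep3B entries of UGT1A1 and UGT1A9 also passed the filter only through the resistant libraries. The 9 higher in Hep3B include both, so that count is a description. UGT1A and GSTA genes share sequence with close copies, so their reads are uncertain. Of 18 phase I genes, 7 were in Huh7, 4 higher and 3 lower (median 0.89), and 9 in Hep3B, 2 higher, 4 lower and 3 not called (median 0.07). CYP2C19 held 39 reads in resistant and 1 in parental Huh7 (ratio 42.7, interval 7.23 to 1730), and in the same line CYP1A1 fell by 1.64. The CYP2C19 entry passed the filter only through the resistant libraries and is a description, though it is counted among the 4 higher. In Hep3B, CYP3A7 rose by 2.48 ± 0.45, CYP1B1 rose by 1.95 ± 0.15 and AOX1 changed by -1.04 ± 0.31, a call lost without parental replicate 3 (-0.85, adjusted p = 0.0547).

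NRF2 target genes other than the transporters were 14 of 18 in Huh7, 10 higher and 4 lower (median log2 0.32), with AKR1C1 up by 1.38 ± 0.05, ME1 by 1.29 ± 0.07 and SLC7A11 by 1.24 ± 0.07. In Hep3B 9 were listed, 2 higher, 3 lower and 4 not called (median -0.11). Among the 9 was AKR1B10, with 30 reads in resistant and 3 in parental cells. Its entry passed the filter on low values only through the resistant libraries, so the count of higher genes is a description. AKR1C1 rose by 2.55 ± 0.41, ME1 fell by 0.70, and TKT, a pentose phosphate enzyme with 7.27 ± 2.15 scaled reads in resistant and 17.8 ± 3.44 in parental cells, changed by -1.20 ± 0.40. The Hep3B entry of TKT covers 1 RefSeq transcript, with 22 resistant and 53 parental reads, so reads from other transcripts of the gene may be missing. The TKT call was lost without resistant replicate 2 (adjusted p = 0.0609), parental replicate 2 (0.0549) or parental replicate 3 (0.0604). The total of 5 calls in this Hep3B list moved by over 1.5 times without resistant replicate 1 or 3 or parental replicate 2 or 3, within 1 to 2 higher and 1 to 5 lower over all alternatives. ME1 and ABCC2 both rose in Huh7 and fell in Hep3B, while ABCC3 and AKR1C1 rose in both. Of the 2132 genes called in both lines, 53.1% had opposite signs, so either pattern is common. Whether these genes share a control was not tested.

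The nearest listed genes on each side of a transporter in the reference annotation were read, up to 2 per side in the same table. Genes not listed were skipped, so a gene named beside a transporter need not be adjacent to it, and the genes named differ between the lines. Beside ABCC2, resistant Huh7 had lower CUTC (log2 -0.37 ± 0.11) and ENTPD7 (-0.27 ± 0.09, a call lost with DESeq2 at -0.19, adjusted p = 0.0676) and higher SCD (0.23 ± 0.04) and OLMALINC (0.54 ± 0.11), all smaller than the 1.26 of ABCC2. In Hep3B, where ABCC2 changed by -0.75, CPN1 (-1.54 ± 0.13) and DNMBP (-0.67 ± 0.17) fell, and CUTC (-0.30 ± 0.13) and COX15 (-0.15 ± 0.16) did not pass. CUTC was called lower in Hep3B under 5 alternatives, with median centring (-0.46, adjusted p = 0.00691), with edgeR (-0.35, 0.0341) and without parental replicate 2 (-0.39, 0.027) among them. Beside ABCG2 in Huh7, FAM13A rose (0.39 ± 0.07) and PKD2 (-0.33 ± 0.09), PYURF (-0.46 ± 0.09) and SPP1 (-1.74 ± 0.22) fell. In Hep3B, HERC5 (1.91 ± 0.21), HSD17B11 (0.55 ± 0.07) and PKD2 (0.52 ± 0.11) rose and PPM1K (-1.71 ± 0.12) fell. ABCG2 thus had neighbours moving both ways in either line. Beside ABCB1 in Huh7, CROT (0.60 ± 0.11), STEAP4 (1.27 ± 0.31) and STEAP1 (0.90 ± 0.10) rose, and DMTF1 beside ABCB4 changed by -0.21 ± 0.07, a call lost with DESeq2 (-0.13, adjusted p = 0.14) and with median centring (-0.15, adjusted p = 0.0604). In Hep3B, TP53TG1 (0.78 ± 0.15) rose, DBF4 (-0.58 ± 0.07) fell, and CROT (-0.48 ± 0.54) and SLC25A40 (-0.13 ± 0.08) did not pass, the last called lower with median centring (-0.29, adjusted p = 0.00631).

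Around ABCC3 in Huh7, LRRC59 (-0.33 ± 0.05), MRPL27 (-0.53 ± 0.09) and ANKRD40 (-0.36 ± 0.07) fell and ANKRD40CL (1.25 ± 0.31) rose, while in Hep3B RSAD1 (-0.09 ± 0.36), CHAD (-0.18 ± 0.43), ANKRD40 (0.03 ± 0.06) and LUC7L3 (0.17 ± 0.12) did not pass. None of the 4 listed neighbours of ABCC3 in Hep3B was called beside its rise of 0.98, where the test called 49.5% of all entries. RSAD1 held only 42 reads in resistant and 45 in parental cells, and CHAD 39 and 47, so moderate changes of these 2 could be missed. The cause of the ABCC3 rise was not tested. Around ABCC1 and ABCC6 on chromosome 16, MPV17L (-0.56 ± 0.10), PKD1P6 (-0.49 ± 0.14) and NOMO3 (-0.26 ± 0.08, lost with DESeq2 at -0.18, adjusted p = 0.0746) fell in Huh7, and XYLT1 had 17.0 ± 3.98 scaled reads in resistant libraries and 0 reads in all 3 parental ones. In Hep3B PKD1P1 (0.68 ± 0.08) and PKD1P6-NPIPP1 (0.65 ± 0.18) rose and PDXDC1 (0.57 ± 0.32) did not pass, though it did without parental replicate 3 (0.84, adjusted p = 0.0492). PKD1P1, PKD1P6 and NPIPP1 belong to duplicated families, so their reads are uncertain, and PKD1P6-NPIPP1 was not called without limma's trend and robust options (adjusted p = 0.0697) or in the authors' deposited table. Beside ABCA5, FAM20A (0.34 ± 0.08), MAP2K6 (0.31 ± 0.09) and KCNJ16 (2.38 ± 0.13) rose in Huh7, against the fall of ABCA5. In Hep3B MAP2K6 (0.20 ± 0.15) did not pass and SOX9-AS1 changed by -0.67 ± 0.27. The SOX9-AS1 call was lost under 7 alternatives, 5 of them the removal of a library: resistant replicate 1 (adjusted p = 0.167), resistant replicate 3 (0.0575), or parental replicate 1 (0.0786), 2 (0.0622) or 3 (0.114).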

How the data were processed

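RNA from 12 libraries, 3 per group, was sequenced after spin-column extraction and Illumina library preparation, per the labels' protocols. The build is GRCh37 per the submitters' processing notes; for the aligner, counter, strandedness and annotation version nothing is given in the sources used here. The deposited signal values of Hep3B were found from the values to be 2 times the square root of reads plus 3/8 after scaling by 1 factor per library, with 1 RefSeq transcript per gene. The deposited signal values of Huh7 are reads per Ensembl gene over 1 factor per library. When both were undone, 100% of values fell within 0.05 of an integer, the read number. In Hep3B 1 entry without a gene name (0.000119% of reads) was left out. Both tables also hold the authors' log2 fold changes and FDR-adjusted p-values, per the file headers. The largest deposited adjusted p-value in Huh7 is 0.0499, so that table is a selection, and 4981 of 8717 Hep3B entries have one of 0.05 or more.

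The planned test for normalized values was used: limma 3.58.1 (R 4.3.3, trend and robust) on log2(scaled reads + 1), a minimum of 1 scaled read in 3 or more libraries, each table fitted on its own, two-sided, Benjamini-Hochberg over the table, threshold 0.05. Scaled reads are recovered reads times (Hep3B) or over (Huh7) the factor; a fold change is on the log2(value + 1) scale, which understates changes of low genes, while fold values in words are those fitted folds and low-read ratios are of scaled totals with exact counting intervals. The difference between lines was divided by its standard error from both fits and tested on t with the summed degrees of freedom. Because the tables were normalized separately, only changes are compared across lines. Alternatives were edgeR 4.0.16 and DESeq2 1.42.0 on recovered reads, the authors' deposited values, pseudocounts of 0.5 and 5, other filters, median centring, the replicate number as a block and leaving out each library. The limma and line difference steps were tested on simulated data. No 2 libraries of a group agreed within sampling noise (chi-square per degree of freedom 2.49 to 13.4 over 12 pairs). The labels do not say that replicates were separate cultures, so p-values rest on the scatter of these samples alone, and that scatter may be technical.

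Levels per kilobase use the GENCODE length of the RefSeq transcript in the Hep3B table, or the matching one for ABCB4. The GRCh38.p14 gene table, used only for names, transcript numbers and neighbours, matched 8701 of 8717 Hep3B and 7327 of 7533 Huh7 entries. Transporters and gene lists were chosen with earlier results of these data known. Named besides the transporters were up to 3 called genes per list and line with the largest log2 change and at least 10 scaled reads in the higher group, up to 2 listed genes on each side of a transporter, and 6 of their regulators where listed. Of the cell type markers only counts and sums are given. Some genes that this rule names are not reported here, though counts and medians of their lists include them.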

Additional observations from a re-analysis of the deposited data

Results flagged for a closer look

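Apart from ABCG2, the change of 4 of 6 transporters in both tables differed between the lines, tested as Huh7 minus Hep3B on the log2 scale. For ABCC2 the difference was 2.01, with a log2 fold change of 1.26 in Huh7 and -0.75 in Hep3B. For ABCA5 it was -1.72, with -0.49 in Huh7 and 1.23 in Hep3B. For ABCC1 it was -0.95, with -0.86 in Huh7 and 0.09, not called, in Hep3B. For ABCC3 it was -0.36, with a rise in both lines, and this difference passed under 17 of 20 alternatives. For ABCG2 it was 2.88 (1.70 with a pseudocount of 5), with 0.41 in Huh7 and -2.47 on 3 resistant and 31 parental reads in Hep3B, where the entry passed the filter on low values only through the parental libraries, so this value is a description. A difference of this kind was called for 67.6% of the 3885 genes in both tables. All of these genes were selected for a change in Huh7, which favours such calls.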

How the results depend on the processing

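Over all alternatives the 15 changes of single transporters kept their side of the threshold in 238 of 238 values, and every called change kept its sign. Those not called (ABCB1, ABCC1 and ABCC6 in Hep3B) changed sign under some. The Huh7 table lists only genes with a deposited adjusted p under 0.05. For Huh7, staying called was thus largely fixed in advance, and wholly so with the deposited values. ABCG2 in Hep3B had no value with edgeR or with a filter of 10 scaled reads, and its adjusted p ranged from 0.00142 to 0.0461 over the other alternatives. Of 139 values of line differences 128 kept their side, 3 lost it (ABCC3) and 8 gained it (7 for ABCC6, 1 for ABCB1), and with Welch-Satterthwaite degrees of freedom, chosen after seeing the data, 5 transporters, ABCG2 among them, were called as before. With a pseudocount of 5 the ABCG2 difference was 1.70. Of 1804 values of the other named genes 1767 kept their side, 29 lost it and 8 gained it, and none turned from a called sign. Leaving out each library, the Hep3B transporters called stayed at 4 and all calls ran from 3766 to 4126, the Huh7 transporters called stayed at 8 and all calls ran from 7369 to 7429, and the line differences called ran from 4 to 6. The transporter counts for Hep3B and for line differences include ABCG2, whose Hep3B entry supports no count.

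Calls over the whole Hep3B table split into 2405 higher and 1912 lower (55.7% higher). With median centring they split into 1747 and 2704 (39.2%), and the authors' deposited table gives 1815 and 1921 (48.6%). On recovered reads edgeR called 4198 Hep3B and 7246 Huh7 entries and DESeq2 3846 and 7113. The median change of all Hep3B entries was 0.07 in the limma fit, against -0.09 with median centring, 0.01 with edgeR and 0.01 with DESeq2. The replicate numbers were not taken to pair libraries, since correlations of same-numbered deviations were not all over 0.1 (0.056, 0.158 and 0.088 in Hep3B and 0.0097, 0.0165 and 0.0693 in Huh7). In Hep3B, though not in Huh7, every library correlated best with its own number, a hint from the data and not from the design. With the replicate block 4881 Hep3B entries were called, against 4317, and 4 transporters, ABCG2 among them, and in Huh7 7531 and 8. The block left every transporter call within a line as it was and added the line difference of ABCC6 (0.26, adjusted p = 0.0284), 6 in all with ABCG2 counted. Counts of the other lists moved by over 1.5 times only in Hep3B: regulators with median centring, canalicular scaffolds with the block, NRF2 targets without any 1 of 4 libraries, endothelial markers without resistant replicate 1, and leukocyte markers under 6 alternatives. Depth limits values on few reads, such as ABCG2 in Hep3B with 3 resistant and 31 parental reads. The cause of these shifts was not tested.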
